A study of Homo sapiens with 6 samples.

Results

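PD-L1 and other immune checkpoint ligands were examined in RL95-2 cells, an established human endometrial cancer line, with and without adipocyte-conditioned medium. They comprised 10 genes, CD274, PDCD1LG2, CD276, VTCN1, CD47, PVR, PVRL2, LGALS9, MICA and MICB, taken by symbol from the 23228 genes of the count tables. All 10 were found, and all 10 were among the 12663 genes with enough reads to be tested. RNA was sequenced from 3 control libraries and 3 ADP-CM libraries, as 50-base single reads of stranded mRNA libraries. Control cells were kept in a serum-free mixture of RPMI and DMEM in equal parts, and treated cells in RPMI mixed in the same proportion with ADP-CM, both for 24 h. ADP-CM was DMEM in which mature adipocytes, isolated from human visceral fat, had been cultured. Every library came from the same cell line, and the sources do not say how many fat donors contributed to the medium or whether replicates were separate cultures, so p-values measure the spread between these libraries only.

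Checkpoint ligands are surface or secreted proteins with which a cell dampens, and in some cases triggers, an attack by immune cells. PD-L1 and PD-L2 bind the receptor PD-1 on T cells, CD47 tells macrophages not to engulf the cell, and the poliovirus receptor PVR and its relative nectin-2 bind the T and NK cell receptors TIGIT and DNAM-1. MICA and MICB work in the other direction, since they are stress-induced ligands that activate NK cells through the receptor NKG2D. In epithelial tumours PD-L1 is known as a gene induced by interferon gamma, and B7-H4, the product of VTCN1, is a B7 protein well known in endometrial and ovarian carcinomas.

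Of these 10 genes, 1 was raised with ADP-CM, 3 were lowered and 6 were not called. CD274 was the only one of the 10 whose rise passed the test, by 1.46-fold, while VTCN1 fell by 47.1%, CD276 by 16.0% and PVRL2 by 10.5%. The other 6 did not pass the test, which was the quasi-likelihood F test of edgeR, with p adjusted by Benjamini-Hochberg over all genes tested and a threshold of 0.01. Each value after ± is the SD over the 3 libraries of a group (n = 3). The 1 raised gene of 10 stands beside a background of 13.5% raised among all genes tested, and the 3 lowered genes beside 13.0%. A fold change over 1.5 was reached as well by 1 member, VTCN1, against 2.27% of all genes. The levels of the 3 ADP-CM libraries did not overlap those of the 3 controls for 7 of the 10, where the share over all genes tested was 45.5%. The median log2 fold change of the 10 was -0.10, against -0.0023 for all genes. In RNA from whole cultures, fewer cells that express a gene and less RNA of it per cell cannot be told apart.

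**Figure D1:**
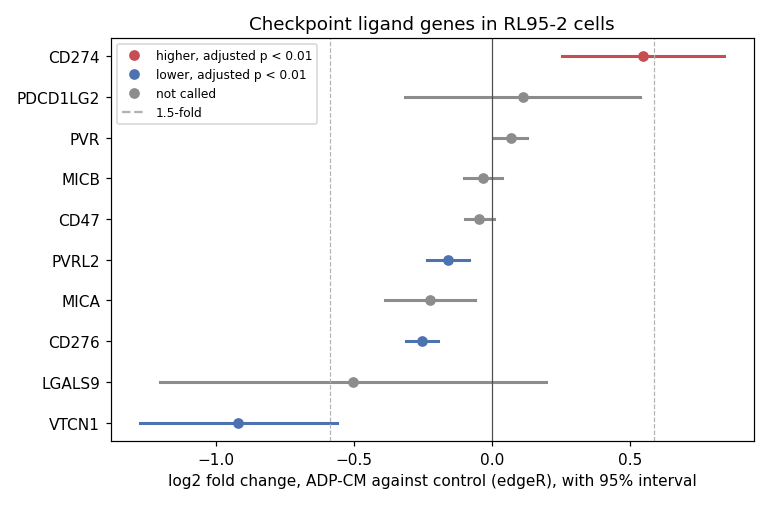
Log2 fold change of each of the 10 genes, ADP-CM against control, as points with 95% intervals from edgeR, and dashed lines at 1.5-fold. CD274 lies farthest right at 0.55 and VTCN1 farthest left at -0.92. PDCD1LG2 and PVR, not called, also lie on the right at 0.11 and 0.07, and the interval of LGALS9 is the widest.

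The libraries held 16262614 to 18363033 reads on genes, and none stood apart in depth. Counts differed most between ADP-CM replicates 2 and 3, at a chi-square per degree of freedom of 2.05. The other pairs of replicates within a group lay between 1.23 and 1.44, where counting error alone would give about 1. The spread beyond counting error that edgeR fitted for all genes together was 1.67% as a coefficient of variation. Such close replicates let small changes pass the test. Reads that lay on no gene made up 10.2% to 10.3% of all counted reads in control and 11.5% to 11.6% in ADP-CM, and the part of this difference in the results was not tested. All 7 epithelial markers checked were expressed, KRT8 the most. Their summed level was 4090 to 4161 CPM (reads scaled to a fixed library size) in control and 3442 to 3487 in ADP-CM. The 7 did not all go the same way. At the edgeR threshold 2 were higher and 4 lower, where 13.5% and 13.0% of all genes tested were. Of 11 leukocyte markers, CD3D, MS4A1, ITGAX and FCGR3A had no read and PTPRC had at most 1 per library, while CD68, at a mean of 9.07 CPM, made up most of a sum of 8.42 to 9.68 CPM in control and 10.9 to 13.2 in ADP-CM. Adipocyte markers summed to 0.370 to 0.948 CPM in control and 0.709 to 0.924 in ADP-CM, with ADIPOQ and LEP at 0 reads. The stromal sum was 61.5 to 68.4 CPM in control and 78.3 to 79.1 in ADP-CM, most of it COL1A1, and the endothelial sum 60.7 to 66.4 and 54.5 to 61.6, most of it CDH5.

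CD274 encodes PD-L1 and lies on chromosome 9, 5450503 to 5470566 on the plus strand of GRCh37. It had 63, 56 and 59 reads in control replicates 1, 2 and 3 and 99, 95 and 90 in the ADP-CM replicates. Every ADP-CM library was above every control library. In CPM, here with library sizes corrected by TMM for composition, the level rose from 3.55 ± 0.296 to 5.18 ± 0.288. On the log2 scale this is a rise of 0.55 (SE 0.15, 95% interval 0.25 to 0.84), at an edgeR adjusted p of 0.00221. The rise kept its direction in all 12 alternative analyses, but the call is close to its threshold. It was lost with DESeq2 (adjusted p 0.0351) and when control replicate 2, control replicate 3 or the first ADP-CM replicate was left out (edgeR adjusted p 0.0158, 0.0118 and 0.0143). Over the alternatives its adjusted p lay between 0.00121 and 0.0351. At this depth the counting error alone is 13.0% of the control level, and the SD between control libraries was 8.35%.

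The DNA before the start of CD274 is shown because the gene is a known target of interferon and STAT signaling, and that of VTCN1 and PVRL2 because both fell. The sequences are those of RefSeq, were each found once in their chromosome of GRCh37, and run 5′ to 3′ along the gene's strand from 250 bases before the RefSeq start to the last base before the first GENCODE exon. CD274 covers chr9:5450292-5450502 on the plus strand, VTCN1 chr1:117753583-117753799 on the minus strand and PVRL2 chr19:45349304-45349431 on the plus strand. Capitals mark matches to the motifs searched.
CD274: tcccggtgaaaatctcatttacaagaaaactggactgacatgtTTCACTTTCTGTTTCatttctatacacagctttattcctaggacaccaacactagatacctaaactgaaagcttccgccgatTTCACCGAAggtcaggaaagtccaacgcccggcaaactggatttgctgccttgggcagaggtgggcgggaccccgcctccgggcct
VTCN1: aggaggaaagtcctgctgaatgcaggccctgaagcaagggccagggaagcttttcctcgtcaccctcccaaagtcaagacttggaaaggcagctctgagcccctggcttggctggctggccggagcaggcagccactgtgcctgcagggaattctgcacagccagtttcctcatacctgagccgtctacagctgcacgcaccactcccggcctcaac
PVRL2: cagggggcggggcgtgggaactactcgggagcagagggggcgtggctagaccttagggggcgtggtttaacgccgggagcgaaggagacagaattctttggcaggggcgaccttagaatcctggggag
The motifs searched were 5, looked for on both strands in the 250 bases before each start. They were the STAT-binding GAS motif TTCNNNGAA, the interferon-response ISRE core GAAANNGAA, an NF-kB site, the AP-1 site TGANTCA and the HIF core ACGTG. CD274 held 1 GAS match, at -125 to -117, and 2 ISRE core matches that share bases, at -207 to -199 and -201 to -193. Of all 34786 such windows, 6.57% held a GAS match and 6.89% an ISRE core match. No match to any of the motifs was found in the windows of VTCN1, PVRL2, PVR, LGALS9 and MICA. CD276 has a second RefSeq start whose window held an NF-kB match, at -68 to -59, and a HIF core match, while those of CD47 and MICB held 1 HIF core match each. NF-kB and HIF core matches occur in 9.96% and 18.5% of all windows, and the AP-1 site, found in none of these genes, in 6.59%. A match is a stretch of letters only. Of the 10 genes, 9 had a window to search, and PDCD1LG2 was not among them.

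PDCD1LG2, the neighbouring gene for PD-L2 (chromosome 9, 5510531 to 5571282), was read 31, 29 and 35 times in control and 36, 40 and 36 times in ADP-CM. Once scaled to library size the groups overlapped, at 1.89 ± 0.166 and 2.04 ± 0.121 CPM. The log2 fold change was 0.11, and its 95% interval ran from -0.32 to 0.54, up to just below the change of CD274. The edgeR adjusted p was 0.724.

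CD276 encodes B7-H3, a B7 family protein abundant on many carcinomas, and lies on chromosome 15, 73976307 to 74006855. Its reads numbered 2685, 2826 and 2749 in control and 2531, 2549 and 2494 in ADP-CM, although the ADP-CM libraries were the larger ones. The level fell from 165 ± 3.40 to 138 ± 2.23 CPM, with no overlap between the groups. This is -0.25 on the log2 scale (SE 0.03), at an edgeR adjusted p of 8.4e-11. Its counting error was 1.91% of the control level.

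VTCN1 encodes B7-H4, an inhibitor of T cell activation (chromosome 1, 117686209 to 117753582, minus strand). It had 70, 68 and 63 reads in control and 33, 38 and 45 in ADP-CM. All 3 ADP-CM libraries were below all 3 controls, and the level fell from 4.01 ± 0.316 to 2.11 ± 0.314 CPM. With a log2 fold change of -0.92 and a 95% interval of -1.27 to -0.56, VTCN1 changed by 1.89-fold, and edgeR's adjusted p was 2.48e-05. The call held in all 12 alternatives, with log2 fold changes between -1.04 and -0.82.

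CD47, the signal against engulfment, was the most abundant of the 10 in reads, at 3102, 3383 and 3360 in control and 3365, 3558 and 3492 in ADP-CM. The gene lies on chromosome 3, 107761938 to 107810709, minus strand. Its groups overlapped, at 196 ± 4.59 and 190 ± 4.08 CPM. The log2 fold change of -0.05 had a 95% interval of -0.10 to 0.01 and an adjusted p of 0.184 in edgeR.

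PVR and PVRL2, both on chromosome 19, encode the poliovirus receptor and nectin-2. PVR (45147098 to 45169430) had 2094, 2249 and 2288 reads in control and 2488, 2509 and 2590 in ADP-CM, or 132 ± 2.57 and 138 ± 2.15 CPM. Its groups did not overlap, but the log2 fold change of 0.07 (95% interval 0.01 to 0.13) did not pass the test, with an adjusted p of 0.0706 in edgeR. In the annotation PVR shares 20.6% of its exonic bases with other genes on its strand, among them CEACAM19, so its count is uncertain.
PVRL2, now NECTIN2 (45349432 to 45392480), had 1298, 1350 and 1370 reads in control and 1255, 1286 and 1385 in ADP-CM. The 3 control libraries lay within 0.106% of each other as a coefficient of variation, closer than the counting error of 2.73%, and the ADP-CM libraries varied by 4.53%. The level fell from 80.0 ± 0.0851 to 71.6 ± 3.24 CPM, or -0.16 on the log2 scale (SE 0.04, edgeR adjusted p 0.000434). ADP-CM replicate 3, at 75.3 CPM, was the nearest to control, yet still below it. Leaving out ADP-CM replicate 1 took the edgeR adjusted p to 0.00998, and DESeq2 on all libraries gave 0.00960, both just inside the threshold. The lowest adjusted p over the alternatives was 1.97e-05, in edgeR without ADP-CM replicate 3.

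LGALS9, the gene for galectin-9, a secreted lectin that binds the T cell receptor TIM-3, was close to the limit of detection. It had 12, 14 and 17 reads in control and 11, 12 and 10 in ADP-CM (chromosome 17, 25956824 to 25976586). The scaled levels, 0.854 ± 0.129 and 0.602 ± 0.0556 CPM, did not overlap, but the 95% interval of the log2 fold change ran from -1.20 to 0.19 and edgeR's adjusted p was 0.262. The near-identical copies LGALS9B and LGALS9C could take part of such reads, since reads with more than 1 place in the genome were not counted.

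MICA and MICB are neighbours in the MHC on chromosome 6 (31367561 to 31383092 and 31462658 to 31478901) and paralogs of each other, so 50-base reads can fail to tell them apart. MICA had 234, 252 and 258 reads in control and 239, 210 and 246 in ADP-CM, in larger libraries. As CPM it was 14.8 ± 0.346 in control and 12.7 ± 1.06 in ADP-CM, without overlap. Its log2 fold change of -0.23 (95% interval -0.39 to -0.06) had an adjusted p of 0.0248 in edgeR, which passes 0.05 but not 0.01. MICB had 1438, 1488 and 1476 reads in control and 1518, 1586 and 1596 in ADP-CM. Its levels overlapped, at 87.7 ± 1.22 and 85.7 ± 1.61 CPM. The log2 difference was -0.03 (95% interval -0.10 to 0.04, edgeR adjusted p 0.494).

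**Figure D2:**
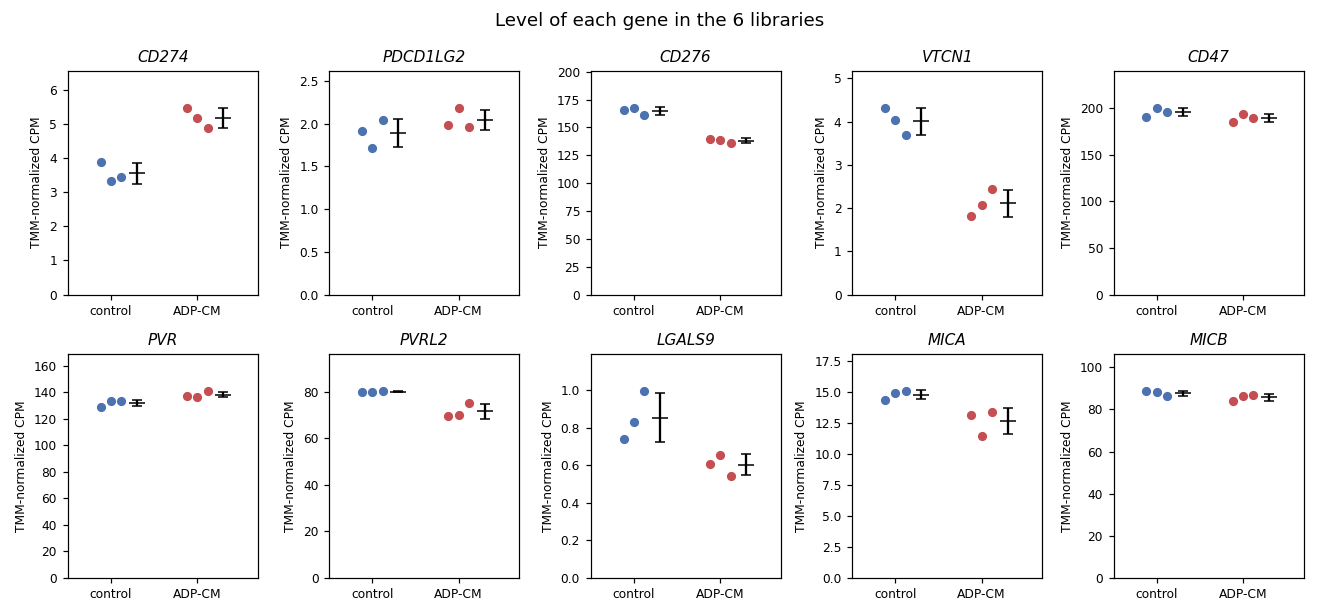
TMM-normalized CPM of each gene in each library, from 0, with replicates 1, 2 and 3 from left to right in each group and the mean and SD beside them. CD274 is higher in all 3 ADP-CM libraries, CD276, VTCN1 and PVRL2 are lower in all 3, and PDCD1LG2, CD47 and MICB overlap.

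To place the genes in order, CPM was divided by the length of all annotated exons of each gene in kilobases. In control cells MICB led, at 31.3 ± 0.436 CPM per kb, followed by CD276 at 30.0 ± 0.621, CD47 at 23.8 ± 0.557 and PVRL2 at 21.4 ± 0.0227. PVR, at 12.7 ± 0.247 CPM per kb, and MICA, at 3.85 ± 0.0898, came next. VTCN1 stood at 1.32 ± 0.104 CPM per kb, CD274 at 0.864 ± 0.0721, PDCD1LG2 at 0.778 ± 0.0681 and LGALS9 at 0.150 ± 0.0226. Of neighbours in this order, CD274 and PDCD1LG2 were the only pair whose control libraries overlapped. In ADP-CM, CD274 was at 1.26 ± 0.0700 CPM per kb, above VTCN1 at 0.698 ± 0.104 and PDCD1LG2 at 0.840 ± 0.0499. With the longest annotated transcript as the length, CD276 came before MICB and PVRL2 before CD47, so those places in the order rest on the length used. The overlap of CD274 and PDCD1LG2 rests on it too. By that length CD274 stood at 0.977 ± 0.0815 CPM per kb in control, without overlap with PDCD1LG2 at 0.778 ± 0.0681.

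**Figure D3:**
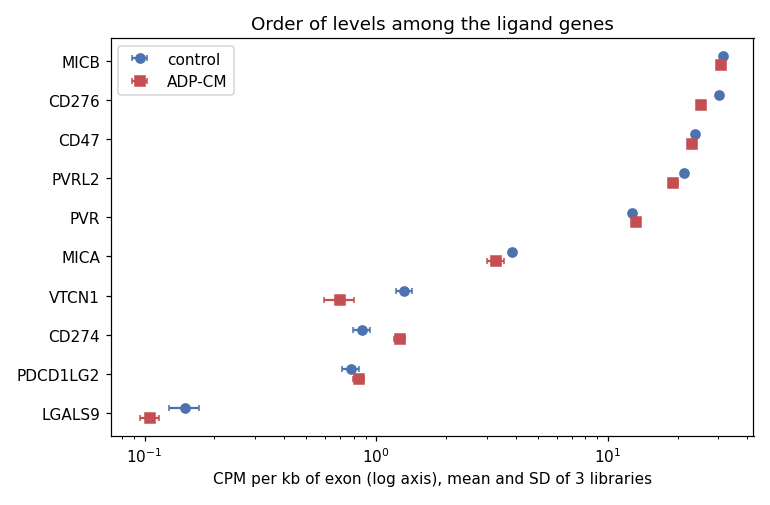
CPM per kb of exon on a log axis, as mean and SD of the 3 control libraries (circles) and the 3 ADP-CM libraries (squares). MICB, CD276, CD47 and PVRL2 lie above 19 in both groups, CD274, PDCD1LG2 and VTCN1 lie near 1, and LGALS9 lies near 0.1.

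Ratios of read counts within a library do not depend on the scaling between libraries. For each PDCD1LG2 read there were 2.03, 1.93 and 1.69 CD274 reads in control and 2.75, 2.38 and 2.50 in ADP-CM. The ratio of PVR to PVRL2 was 1.61, 1.67 and 1.67 in control and 1.98, 1.95 and 1.87 in ADP-CM, so of the 2 related receptors, PVR gained on PVRL2. MICA to MICB stood at 0.163, 0.169 and 0.175 in control and 0.157, 0.132 and 0.154 in ADP-CM. On the log2 scale these ratios shifted by 0.43, 0.23 and -0.19, with no overlap between groups for any of the 3 pairs. The share of other gene pairs without overlap was not computed. Among all single genes tested it was 45.5%. The two-sided exact permutation p was 0.10 for each of the 3 ratios. That is the smallest that 3 libraries against 3 can give, so no pair could pass this test.

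**Figure D4:**
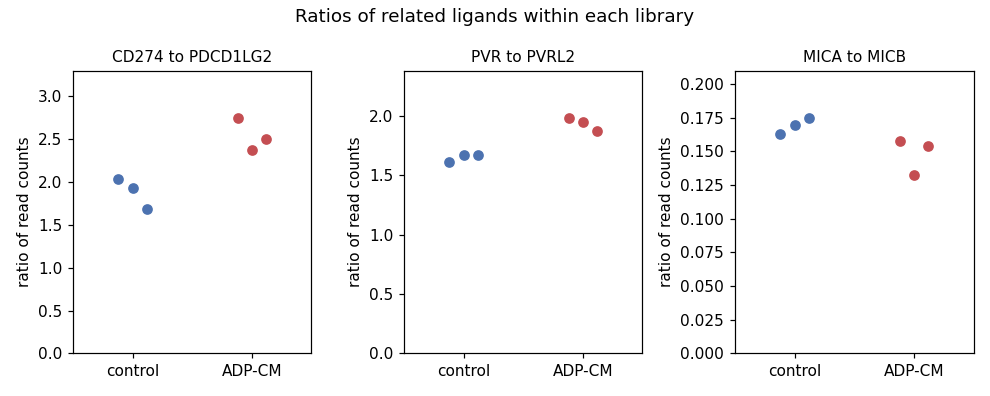
Ratio of read counts of 3 pairs of related ligands in each library, with axes from 0. CD274 to PDCD1LG2 and PVR to PVRL2 are higher in all 3 ADP-CM libraries than in any control library, and MICA to MICB is lower.

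The genes around the ligands were taken from 12 lists of 102 genes in all, of which 64 could be tested. Of these, 12 were raised and 12 lowered at the same threshold, where 13.5% and 13.0% of all genes tested were. None of the called ones passed 1.5-fold, against 2.27% of all genes, and the median log2 fold change was 0.01. Among further ligands, neither of the 2 tested B7 genes was called, and 0 had an unadjusted p under 0.05 or a DESeq2 call. C10orf54 (VISTA), the more abundant, differed by -0.01 on the log2 scale, a sign that turned without single libraries, and CD80, CD86 and HHLA2 had at most 1 read in a library. Of the 4 other nectin family genes 0 were called by edgeR or DESeq2, and 1 had an unadjusted p under 0.05, PVRL1, at -0.05 on the log2 scale. Of the other NKG2D ligands only ULBP3 was tested, with 39 to 57 reads and no call. CD24, which like CD47 restrains macrophages, fell from 183 ± 4.49 to 157 ± 4.68 CPM, which is -0.22 on the log2 scale (edgeR adjusted p 3.54e-09). LGALS1, HLA-E and NT5E, the last an enzyme that makes adenosine, rose by 0.10, 0.08 and 0.10 on the log2 scale (edgeR adjusted p 0.00076, 0.00657 and 0.00178). Of 12 alternatives, LGALS1 lost its call in 1, and HLA-E and NT5E in 4 each. Their edgeR adjusted p reached 0.0232, 0.0389 and 0.0181. HMGB1, the most abundant of these ligands, was not called, at -0.03 on the log2 scale.
Of 14 receptors of the ligands only SIRPA, the receptor of CD47, was tested. It had 8.99 ± 0.727 CPM in control against 10.9 ± 0.702 with ADP-CM (edgeR adjusted p 0.0194, not called). The other 13, mostly receptors of lymphocytes, had at most 10 reads in a library, and PDCD1, CTLA4, ICOS, TIGIT and KLRK1 had none.

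All 18 transcriptional regulators of PD-L1 were tested, of which 5 were raised and 4 lowered, beside the same 13.5% and 13.0% of all genes, with a median log2 fold change of 0.02. IRF9, a subunit of the interferon-activated complex ISGF3, rose from 4.98 ± 0.234 to 7.41 ± 0.401 CPM, 0.57 on the log2 scale (edgeR adjusted p 0.000133). JAK1, MYC and STAT2 rose by 0.35, 0.32 and 0.25, with edgeR adjusted p of 0.00016, 3.54e-18 and 4.18e-05. IRF1, the factor through which interferon gamma acts on PD-L1, fell from 62.5 ± 1.10 to 49.6 ± 1.27 CPM, -0.33 on the log2 scale (edgeR adjusted p 1.66e-09). STAT3 was the most abundant regulator and was not called, at 328 ± 9.84 and 324 ± 8.15 CPM, a difference whose sign turned without control replicate 2 or ADP-CM replicate 2.
Of 13 interferon gamma response genes 8 were tested, and 3 were lowered and 0 raised at the threshold, where 13.0% and 13.5% of all genes were, with a median log2 fold change of -0.25. At an unadjusted edgeR p under 0.05, 0 were higher and 7 lower, beside 22.6% and 22.4% of all genes. DESeq2 called 0 higher and 3 lower, beside 8.39% and 7.77% of the genes to which it gave an adjusted p. GBP1, PSMB9 and TAP1 fell by 0.37, 0.30 and 0.30 on the log2 scale (edgeR adjusted p 3.67e-05, 1.09e-05 and 7.8e-13). CXCL9, the chemokine most specific for interferon gamma, had no read in any library. In the same ADP-CM libraries CD274, IRF9, JAK1, MYC and STAT2 rose, while IRF1, GBP1, PSMB9 and TAP1 fell. What links these changes was not tested.

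**Figure D5:**
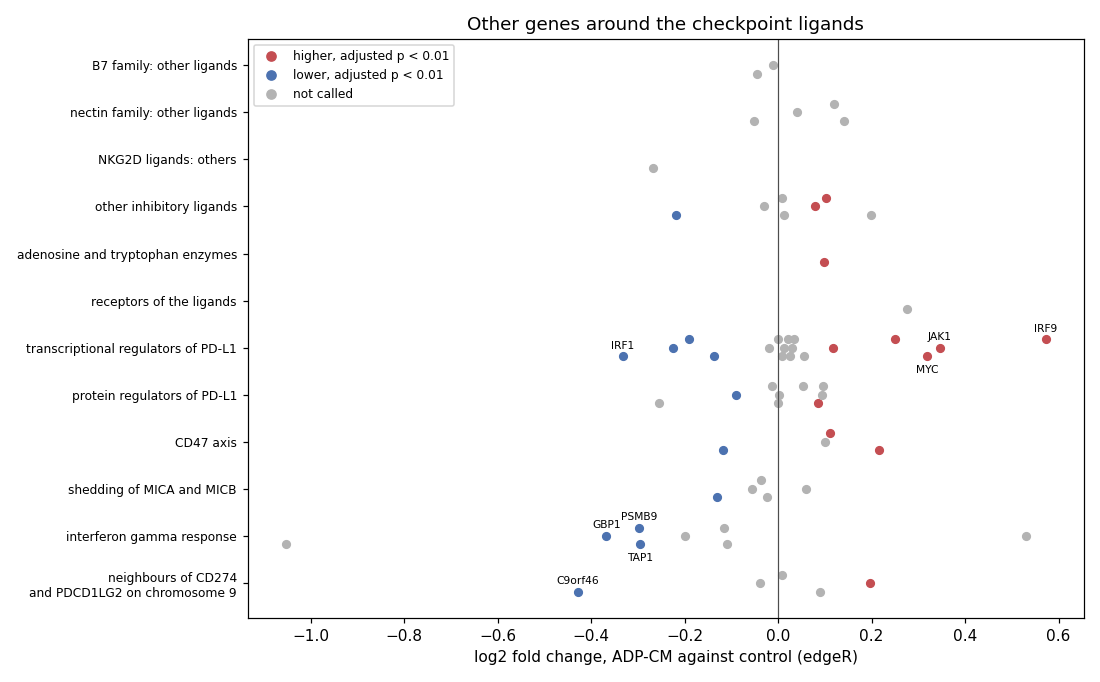
Log2 fold change of every tested gene of the 12 lists, 1 row a list, with genes raised at an adjusted p under 0.01 in red, lowered ones in blue and the rest in grey. IRF9, JAK1 and MYC lie farthest right and C9orf46, GBP1, IRF1, PSMB9 and TAP1 farthest left among the called genes.

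Of 9 regulators of the PD-L1 protein, 1 was raised and 1 lowered, beside 13.5% and 13.0% of all genes tested. At an unadjusted edgeR p under 0.05, 3 were higher and 2 lower, beside 22.6% and 22.4% of all genes. CMTM6, which keeps PD-L1 on the cell surface, was lowered by 0.09 on the log2 scale (edgeR adjusted p 0.00752). GSK3B, a kinase that marks PD-L1 for degradation, was raised by 0.08 (edgeR adjusted p 0.00869). Both calls were lost with DESeq2, and that of CMTM6 also when any of 4 libraries, that of GSK3B when any of 5, was left out, at adjusted p of up to 0.0647 and 0.0590. In the CD47 axis, CALR, the calreticulin that invites engulfment, fell from 1473 ± 17.7 to 1357 ± 15.4 CPM, while its receptor gene LRP1 and THBS1, a ligand of CD47, rose by 0.22 and 0.11 on the log2 scale. The edgeR adjusted p of LRP1, 0.00282, was as high as 0.0448 over the alternatives, where its call was lost in 4 of 12, while that of THBS1 stayed at or under 9.81e-05. Among 5 genes for shedding MICA and MICB from the surface, PDIA6 was lowered by 0.13 on the log2 scale (edgeR adjusted p 1.88e-07) and ADAM9, the most abundant, was not called, at -0.02.

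On chromosome 9 around CD274 and PDCD1LG2, 5 of 9 neighbours were tested. C9orf46, now PLGRKT, fell from 11.1 ± 1.46 to 8.22 ± 0.329 CPM, -0.43 on the log2 scale, a call that was lost with DESeq2 and when control replicate 1 was left out (adjusted p up to 0.0144). KIAA1432, now RIC1, rose by 0.20 on the log2 scale with an edgeR adjusted p of 0.000141. JAK2, ERMP1 and KIAA2026 differed by 0.01, -0.04 and 0.09 on the log2 scale and were not called, and the sign of JAK2 turned without single libraries.

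Across the 6 libraries, the genes whose log2 CPM followed that of CD274 most closely included MFF, IFFO2, MYO1E and PLEK2, with Pearson correlations between 0.993 and 0.996. Of 12136 genes compared, 389 had a correlation over 0.95, and all of these points share 6 libraries that differ in treatment, so the order is a description only. Among the ligands themselves, PVR and PDCD1LG2 had correlations of 0.68 and 0.58 with CD274, and VTCN1, PVRL2 and CD276 of -0.94, -0.93 and -0.93.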

How the data were processed

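The deposited values are raw read counts per RefSeq gene, which the authors obtained for each library with HTSeq after TopHat2 alignment to hg19. Tool versions and the strand setting of the counting are not given in the sources used here. Lines that name no gene (reads on no gene, ambiguous reads at 0.709% to 0.721%, and reads without a unique place at 20.5% to 20.8%) entered neither library sizes nor tests. In R 4.3.3, counts were normalized by TMM, filtered by filterByExpr (12663 of 23228 genes) and compared in edgeR 4.0.16 by its quasi-likelihood F test, with p adjusted by Benjamini-Hochberg over all genes. Standard errors and 95% intervals were derived from its F statistic. Calls required an adjusted p below 0.01, and fold changes beyond 1.5 were counted apart. Correlations with CD274 used log2(CPM + 0.5) of genes with a mean of at least 1 CPM.

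DESeq2 1.42.0, other size factors, other filters, a replicate block and the loss of each library were tried. The fits were tested on simulated data. The genes and lists were chosen with earlier results of these data known. Named from each list were up to 5 called genes with the largest log2 fold change and the most abundant gene, all tested neighbours of CD274, and the 5 genes with the highest correlation with CD274, of which not all are reported here. Positions and exon lengths came from GENCODE 44 on GRCh37, the build of hg19, and promoter sequences from the RefSeq table for GRCh38, placed in GRCh37 by exact match, except that of PVR, which had no exact match and was searched for motifs only. Protein was not analysed here.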

Additional observations from a re-analysis of the deposited data

How the results depend on the processing

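With DESeq2 in place of edgeR, 0 ligands were raised, since CD274 passed 0.05 but not 0.01, and all genes raised, lowered and past the fold limit numbered 1027, 951 and 178, against 1707, 1650 and 288. It raised 7 genes of the lists instead of 12 and lowered 8 instead of 12. The cause was not tested. Leaving out each library in turn gave 0 to 1 ligands raised, 1 to 2 past the fold limit (CD274 joined without control replicate 1 or ADP-CM replicate 3) and 6 to 11 list genes raised, with 6 without ADP-CM replicate 1. The lowered ligands numbered 3 in each of these fits. No log2 fold change of a ligand changed direction in the 12 alternatives, and of 120 such values 115 stayed on their side of the threshold, 4, all of CD274, did not, and 1, LGALS9 with DESeq2, had no adjusted p. With 0.05 as the threshold, 1 ligand was raised and 4 were lowered, MICA being the added one. With a replicate block, 1786 genes were raised and 1716 lowered, and the calls of the ligands were unchanged. The replicate numbers were not taken as pairs, since deviations of same-numbered libraries correlated by 0.0364 to 0.0865, although each library correlated best with its own number. All ligands passed the filter, so no separate test of those under it was made. Depth limits CD274, PDCD1LG2, VTCN1 and LGALS9, each with at most 99 reads in a library.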
